A study of Mus musculus with 3 samples.

Results

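Splicing factors, snRNP proteins and hnRNP proteins were compared between mouse liver and UMRR (Universal Mouse Reference RNA), a purchased mixture of RNAs prepared from cultured mouse lines. The members were the probes whose single annotated symbol begins with Srsf, Snrp, Sf3, Hnrnp, Prpf, U2af, Lsm, Rbm, Ptbp or Celf, or is Sf1. They came to 79 genes, on 152 of the 16273 probes, among 7984 named genes on the array. Of them 56 had a probe with a ratio on each of the 3 arrays, as did 5520 genes in all. Both RNAs were purchased total RNA, and each was amplified in a single round before labelling. Every array carried liver in Cy5 and UMRR in Cy3, and the labels give no strain, sex, age or number of animals for the liver. All 3 arrays repeat 1 pair of catalogue products, so the p-values below reflect how far arrays differ, possibly for technical reasons only, and say nothing of variation among livers. No dye swap was made, so dye bias and a difference between the RNAs cannot be told apart.

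The spliceosome removes introns from pre-mRNA and is built from small nuclear ribonucleoproteins (snRNPs), each an RNA held in a ring of Sm or Lsm proteins with further proteins of its own. SR proteins bind exons and mostly favour the use of nearby splice sites, while hnRNP proteins coat pre-mRNA and often oppose it. Liver cells divide rarely and make large amounts of a few secreted proteins, whereas cell lines divide quickly; both need the whole machinery. The prefixes also take in genes with other work, among them Lsm14a of cytoplasmic P-bodies, Rbm28 of ribosome assembly and Rbm3os, an RNA antisense to Rbm3.

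Values are log2 ratios of liver over UMRR as the authors processed them, with base 2 assumed; were they natural logs, each would be larger by a factor of 1.44. An exact 0 was read as no measured ratio. The direction was set by the hepatocyte secretory genes Apoc3, Ambp, Rbp4 and Vtn, the measured ones of 6 on the array, with means of 4.01 to 5.17. The liver RNA also carried 10 of 11 pancreatic acinar markers at higher level (median 3.87) and 5 of 7 erythroid markers (median 4.39). Of 8 measured proliferation markers, of 13 on the array, 7 were lower in liver; their median was -2.22, -2.38 and -2.44 on arrays 1, 2 and 3, from -4.15 for Cdk1 to -0.0046 for Mcm4. The part of these cell types and of cell division in the results below was not tested. In such bulk RNA, fewer cells of a type and less RNA per cell cannot be told apart. A ratio gives a difference between the RNAs and not a level, so no gene's abundance is set against another's.

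Most of the measured genes were lower in liver. With limma, and p-values adjusted by Benjamini-Hochberg over the 5520 genes, 42 of 56 (75%) were lower at an adjusted p of 0.05, against 33.9% of all genes tested. Only 3 of 56 (5.36%) were higher (Snrpn, Rbm14 and Lsm1), against 30.1% of all genes, and 11 did not pass. In either direction 45 of 56 passed, against 64.0% of all genes. Without moderation of the variance 25 were lower, while calls over all 5520 genes in either direction fell from 3535 to 2087. The share of all genes lower in that fit was not computed. The median log2 ratio of the 56 was -0.74, with -0.74, -0.72 and -0.66 on arrays 1, 2 and 3, and that of all genes tested was -0.028. The means ran from -2.11 for Lsm8 to 1.47 for Snrpn. Of the lower genes 16 stood at or below -1 and 26 above it. Among all genes tested, 12.1% had a mean below that of Hnrnpab (-1.05), the highest of the 16. The share below Sf3b5 (-0.99), the next gene, was 13.5%. Without a test, 9 of the 56 genes were at least 2-fold lower on every array, against 526 of all 5520 genes (9.53%). They were Lsm8, Snrpd1, Snrpf, Lsm14a, Snrpb2, Rbms1, Snrpa1, Srsf3 and Lsm3. Snrpn was the 1 gene of the 56 at least 2-fold higher on every array, against 522 of all 5520 genes (9.46%). With each exact zero entered as a ratio of 1, the median over all 79 genes was -0.35.

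**Figure D1:**
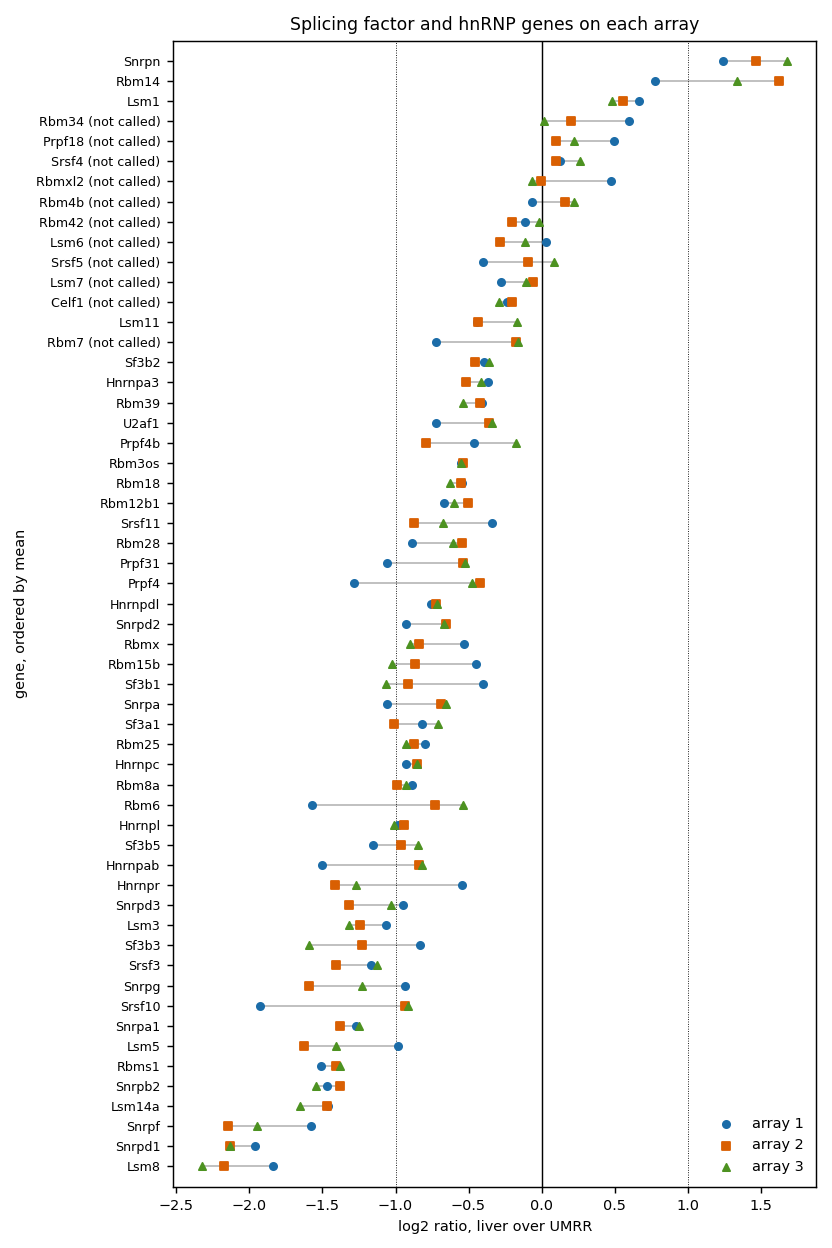
Log2 ratio of liver over UMRR (x axis) for each of the 56 genes measured on 3 arrays (y axis, ordered by mean), with 1 point per array and a grey line from the lowest to the highest array; dotted lines mark a 2-fold difference. Of the genes past the test, 42 lie to the left of 0 on every array and 3 to the right.

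The proteins of the Sm ring and of the U1 and U2 snRNPs held the lowest family median, -1.25 over 9 measured genes, of which 8 were lower and 1 was higher. Of the Sm ring, Snrpd1 stood at -1.96, -2.13 and -2.14 on arrays 1, 2 and 3. Its mean was -2.08 ± 0.099 (SD, n = 3), or 4.22-fold lower in liver (adjusted p = 1.10e-05). Snrpf, another ring subunit, stood at -1.58, -2.15 and -1.95, a mean of -1.89 ± 0.29 (adjusted p = 5.40e-05). Both genes lay below a 2-fold difference on each array. Snrpd1 rested on 1 of its 5 probes; when probes with values on 2 arrays were let in, its mean was -1.71, and with exact zeros kept it was -0.80.

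The other ring subunits were lower by less. Snrpg stood at -0.94, -1.59 and -1.23 and Snrpd3 at -0.95, -1.32 and -1.03, each as the mean of 3 probes. Snrpd2 stood at -0.93, -0.66 and -0.67, with a mean of -0.75 ± 0.15 (SD, n = 3). Snrpd1 lay below Snrpd3, another subunit of the ring, by 0.98 ± 0.15 on the log2 scale, with the lower value for Snrpd1 on each array, but lay above it by 0.30 once exact zeros counted as equal levels. The 3 measured proteins that belong to 1 snRNP each were all lower too. Snrpb2, of the U2 snRNP, had a mean of -1.47 ± 0.081 and Snrpa1, also of U2, a mean of -1.30 ± 0.067. A further Snrpb2 probe gave a ratio on array 2 alone, -0.013, and with exact zeros kept the mean of Snrpb2 was -1.10. Snrpa, of the U1 snRNP, stood at -1.06, -0.69 and -0.65. Snrpa (adjusted p = 0.0600) and Snrpg (0.0546) lost their calls without moderation of the variance, and Snrpg also with exact zeros kept (0.0610).

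Snrpn went the other way. It encodes SmN, a form of the SmB subunit that is abundant in brain, and it is expressed from the paternal copy only. Its values were 1.25, 1.47 and 1.68 on arrays 1, 2 and 3, a mean of 1.47 ± 0.22 (SD, n = 3) or 2.76-fold higher in liver (adjusted p = 8.82e-05). A second Snrpn probe was measured on 2 arrays, at 0.63 and 0.46, and the gene's mean was 0.91 with exact zeros kept. Both probes therefore lay above 0 wherever they gave a ratio, while the other measured ring genes lay below 0 on every array. Snrpn shares a transcript with Snurf, so a ratio cannot be split between them.

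Lsm proteins form 2 rings that share most subunits. Lsm8 completes the nuclear ring, which binds the end of U6 snRNA, and Lsm1 takes its place in the cytoplasmic ring, which helps to decap mRNA. Lsm8 stood at -1.84, -2.17 and -2.32 on arrays 1, 2 and 3, a mean of -2.11 ± 0.25 (SD, n = 3) or 4.32-fold lower in liver (adjusted p = 2.55e-05). Lsm1 stood at 0.66, 0.55 and 0.48, a mean of 0.57 ± 0.093 or 1.48-fold higher (adjusted p = 0.00241). Lsm1 lay above Lsm8 by 2.50, 2.73 and 2.80 log2 units on the 3 arrays, a difference of 2.68 ± 0.16. Of 4 pairs of related genes that could be compared, this was the 1 pair at least 1 log2 unit apart on every array. Each gene had 1 probe measured on all arrays. A second Lsm1 probe gave 0.76 and 0.26 on arrays 1 and 3, and with exact zeros kept the call of Lsm1 was lost (adjusted p = 0.106).

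Of the subunits that both rings share, 4 were measured. Lsm5 (-1.34 ± 0.33, SD, n = 3) and Lsm3 (-1.21 ± 0.13) were lower, and Lsm5 lost its call without moderation (adjusted p = 0.0505). Lsm6 (-0.12 ± 0.16, adjusted p = 0.337) and Lsm7 (-0.15 ± 0.11, adjusted p = 0.225) did not pass. Lsm4, measured on 2 arrays only, stood at 0.84 and 1.11. Of the shared subunits only Lsm4, which entered no test, lay above 0 on each array with a ratio. The mean of Lsm7 joins probes on both sides of 0, and with the median probe it was lower (-0.67, adjusted p = 0.00423). Lsm14a, a repressor of translation in P-bodies, was lower at -1.46, -1.47 and -1.65, with a mean of -0.93 when zeros were kept. Lsm11, which belongs to the U7 snRNP that processes histone mRNA, had a mean of -0.35 ± 0.16 and lost its call when array 2 (adjusted p = 0.143) or array 3 (0.0643) was left out. Its call was also lost with zeros kept (0.0862) and without moderation (0.106).

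**Figure D2:**
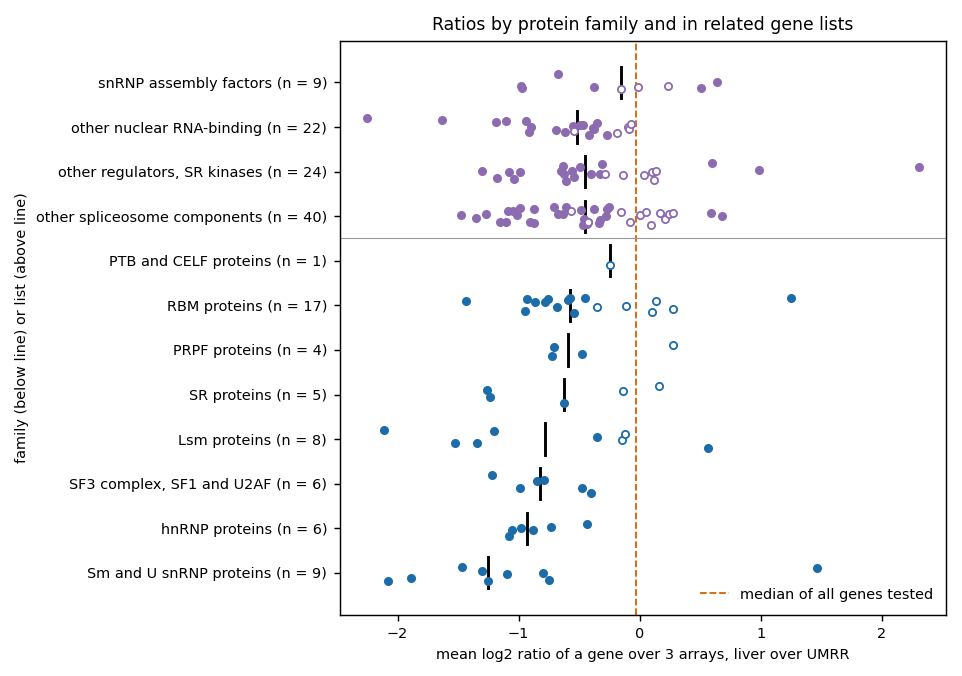
Mean log2 ratio over 3 arrays (x axis) of each measured gene, by protein family (blue) and in 4 lists of related genes with other names (purple); filled points passed the test, open points did not, black bars are medians and the dashed line is the median of all genes tested (-0.028). The Sm and U snRNP proteins have the lowest family median (-1.25), and Snrpn (1.47) stands apart from them.

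The bases before the gene starts are shown for 3 of the lowest snRNP genes and for Rbm14, the gene with the second highest ratio. Snrpd1 (-2.08), lower than Snrpf and Snrpb2, and Snrpn (1.47), the highest, are not shown. Each window is the 250 bases before the start listed by RefSeq (build GRCm38.p6), 5′ to 3′ on the gene's strand. Matches to 6 searched motifs are in capitals. The motifs, searched on both strands, were the GC box GGGCGG, the CCAAT box CCAAT, the ETS motif CCGGAAG, the E-box CACGTG, the NRF1-type motif GCATGCGC and the TATA box TATAAA. The windows are chr6:18848385-18848634 (+ strand), chr10:93589659-93589908 (- strand), chr2:143062819-143063068 (+ strand) and chr19:4811635-4811884 (- strand).
Lsm8: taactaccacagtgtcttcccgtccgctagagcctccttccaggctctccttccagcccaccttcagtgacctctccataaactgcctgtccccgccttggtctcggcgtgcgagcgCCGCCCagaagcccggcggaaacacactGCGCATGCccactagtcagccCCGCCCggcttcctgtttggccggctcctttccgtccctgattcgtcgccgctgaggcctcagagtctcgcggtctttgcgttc
Snrpf: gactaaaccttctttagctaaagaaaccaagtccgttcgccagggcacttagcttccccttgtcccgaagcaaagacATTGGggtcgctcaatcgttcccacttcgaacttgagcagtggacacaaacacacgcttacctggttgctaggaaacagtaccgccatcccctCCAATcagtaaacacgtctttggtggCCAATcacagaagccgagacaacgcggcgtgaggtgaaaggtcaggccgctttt
Snrpb2: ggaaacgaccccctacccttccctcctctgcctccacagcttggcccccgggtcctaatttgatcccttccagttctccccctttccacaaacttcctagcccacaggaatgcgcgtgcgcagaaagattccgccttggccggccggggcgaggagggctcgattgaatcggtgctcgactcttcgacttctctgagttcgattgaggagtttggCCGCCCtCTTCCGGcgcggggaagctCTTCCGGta
Rbm14: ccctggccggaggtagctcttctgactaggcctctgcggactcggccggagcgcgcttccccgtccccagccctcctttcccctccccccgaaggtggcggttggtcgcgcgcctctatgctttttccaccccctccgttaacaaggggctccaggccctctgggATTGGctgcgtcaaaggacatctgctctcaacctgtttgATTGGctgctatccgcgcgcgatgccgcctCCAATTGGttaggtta

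The windows held different motifs. Lsm8 had 2 GC boxes and 1 NRF1-type motif, and Snrpb2 had 2 ETS motifs and 1 GC box close to its start. Snrpf had 3 CCAAT boxes. Rbm14, which was higher in liver, held 4 CCAAT matches, of which 2 overlap. Promoters were listed for 50 of the 56 measured genes, in 63 windows. The ETS motif was found in 15 of the 63 (23.8%), against 11.5% of the windows of all genes tested and 6.91% of all windows in the table. The GC box was found in 60.3% of the 63, against 50.2% of those of tested genes and 32.7% of all. For the CCAAT box the shares were 39.7%, 34.7% and 33.9%, for the E-box 9.52%, 7.93% and 6.02%, for the NRF1-type motif 4.76%, 4.04% and 2.26%, and for the TATA box 7.94%, 7.84% and 12.4%. The windows of the 63 were also richer in G and C, with a median of 60.8% against 58.0% for tested genes. Among the 45 windows of genes lower in liver 22.2% held the ETS motif. Those 45 windows make up most of the 63, so their share could hardly differ from that of all measured members. These matches describe letters only.

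The 6 measured genes for recognition of the branch point and the end of the intron were lower. SF3A and SF3B are the parts of the U2 snRNP that grip the branch point, and 5 of 6 genes on the array were measured on all arrays and lower. The sixth, Sf3b6, also a branch point protein, gave a ratio on array 1 alone, 0.37. Sf3b3 stood at -0.83, -1.23 and -1.59 on arrays 1, 2 and 3, a mean of -1.22 ± 0.38 (SD, n = 3, adjusted p = 0.000696). Sf3b5 followed at -0.99 ± 0.16 and Sf3a1 at -0.85 ± 0.15. Sf3b1, the subunit that contacts the branch point, stood at -0.40, -0.92 and -1.07. Sf3b2 was the least lowered, at -0.41 ± 0.049, and lost its call when array 2 (adjusted p = 0.0686) or array 3 (0.0709) was left out. U2af1, which reads the last bases of the intron, was lower at -0.47 ± 0.22. The median of the 6 was -0.82. Without moderation of the variance Sf3b3 (adjusted p = 0.0671), Sf3b1 (0.103) and U2af1 (0.110) lost their calls. With exact zeros kept Sf3b1 (0.0828) and U2af1 (0.0907) lost theirs, and Sf3b2 stood at -0.23.

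Of the PRPF proteins, 3 of 4 measured genes were lower (median -0.59). Prpf4, of the U4/U6 snRNP, stood at -1.28, -0.42 and -0.47, a mean of -0.73 ± 0.48 (SD, n = 3). Prpf31, which joins U4/U6 to U5, stood at -1.06, -0.54 and -0.52, so both were lowest on array 1. Prpf4b, a kinase that acts on splicing proteins, stood at -0.46, -0.79 and -0.18 and lost its call without array 2 (adjusted p = 0.128). All 3 calls were lost with exact zeros kept, with adjusted p = 0.165 for Prpf4, 0.0797 for Prpf31 and 0.304 for Prpf4b (at -0.27). They were lost without moderation too (0.178, 0.0998 and 0.170). Prpf18, a factor of the second splicing step, lay above 0 on each array, at 0.49, 0.10 and 0.22, and did not pass (adjusted p = 0.0731).

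Of 5 measured SR proteins, 3 were lower and 2 did not pass (median -0.63). Srsf10, which can repress splicing, stood at -1.93, -0.94 and -0.91 on arrays 1, 2 and 3, a mean of -1.26 ± 0.58 (SD, n = 3, adjusted p = 0.00244). Srsf3, the smallest SR protein, stood closer together at -1.17, -1.41 and -1.13, or 2.35-fold lower (adjusted p = 0.000113). Srsf11 was lower at -0.63 ± 0.27. With exact zeros kept all 3 lost their calls, Srsf10 at -0.63 (adjusted p = 0.0895), Srsf3 at -0.72 (0.122) and Srsf11 at -0.31 (0.0809). Without moderation Srsf10 (0.109) and Srsf11 (0.1003) lost theirs. Srsf4 (0.16 ± 0.087, adjusted p = 0.175) and Srsf5 (-0.14 ± 0.25, adjusted p = 0.359) did not pass, and their measured probes had means between -0.18 and 0.25. Srsf1, the founding member, had ratios on 2 arrays only, -0.73 and -1.14, and Srsf2 likewise, -0.49 and -0.55.

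All 6 measured hnRNP genes, of 10 on the array, were lower, with a median of -0.93 and a narrow range of -1.08 to -0.43. Hnrnpr stood at -0.54, -1.42 and -1.27 and Hnrnpab at -1.50, -0.84 and -0.82, so array 1 was the highest for 1 and the lowest for the other. Hnrnpl, which binds CA repeats, was steady at -0.98, -0.94 and -1.01, or 1.97-fold lower (adjusted p = 0.000177). Hnrnpc, which binds U tracts, had a mean of -0.88 ± 0.044 (SD, n = 3) over 6 probes, several of them made from 1 accession. Its mean was -0.58 when probes of 1 accession were averaged first. Hnrnpdl stood at -0.73 ± 0.023 and Hnrnpa3 at -0.43 ± 0.076; Hnrnpa3 no longer passed when array 2 (adjusted p = 0.0624) or array 3 (0.0653) was left out, or with exact zeros kept (0.154). Hnrnpr and Hnrnpab lost their calls with exact zeros kept (adjusted p = 0.0809 and 0.0621) and without moderation (0.101 and 0.0822). Hnrnpa2b1, Hnrnpa0, Hnrnpf and Hnrnpm were listed at exact 0 on every array, which was read as no ratio and not as equal levels. Celf1, the 1 gene of the PTB and CELF proteins on the array, did not pass (-0.24 ± 0.044, adjusted p = 0.0540). It passed under 5 alternatives, among them without array 1 (adjusted p = 0.0263). Its 2 measured probes stood apart, at -0.58 and 0.092, so the mean describes neither.

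RBM genes are named for an RNA-binding motif and share no single task. Of 17 measured, of 26 on the array, 11 were lower, 1 was higher and 5 did not pass (median -0.57). Rbms1, which binds single-stranded nucleic acid, was lowest at -1.51, -1.41 and -1.38, or 2.70-fold lower (adjusted p = 3.97e-05). Rbm8a, the Y14 subunit of the exon junction complex that marks spliced mRNA, stood at -0.93 ± 0.053 (SD, n = 3). Rbm25, a regulator of 5′ splice site choice, stood at -0.87 ± 0.062. Rbmx, also called hnRNP G, stood at -0.76 ± 0.20 and Rbm15b, of the complex that methylates adenosines in mRNA, at -0.78 ± 0.30. Rbm6 stood at -1.57, -0.73 and -0.54, with array 1 far below the others. Rbm28 (-0.68), Rbm12b1 (-0.59), Rbm18 (-0.57) and Rbm39 (-0.46) completed the lower proteins. Rbm39 lost its call without array 3 (adjusted p = 0.0786). Rbm6 and Rbm15b lost theirs with exact zeros kept (0.134 and 0.0649) and without moderation (0.150 and 0.0850), and Rbm28 (0.0560) and Rbmx (0.0544) without moderation. The antisense RNA Rbm3os was lower as well, at -0.55 ± 0.0089, and lost its call once medians of probe blocks were subtracted (-0.22, adjusted p = 0.102). Rbm3, the cold-induced gene on the other strand, gave a ratio on array 2 alone, -0.99.

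Rbm14, a coactivator found in paraspeckles, was the RBM gene higher in liver. It stood at 0.77, 1.63 and 1.34 on arrays 1, 2 and 3, a mean of 1.25 ± 0.43 (SD, n = 3) or 2.37-fold higher (adjusted p = 0.000953). Its sign held on every array, but its call was lost without moderation of the variance (adjusted p = 0.0758) and with exact zeros kept (adjusted p = 0.0561). Other proteins of the paraspeckle were lower: Pspc1 stood at -2.25 ± 0.055, Sfpq at -1.10 ± 0.23 and Nono at -0.69 ± 0.17. Of the RBM genes that did not pass, Rbm7, of a complex that targets nuclear RNA for decay, stood at -0.35 ± 0.32 and passed once block medians were subtracted (adjusted p = 0.0240). The other 4 were Rbm34 (0.27), Rbmxl2, a testis form of Rbmx (0.13), Rbm4b (0.11) and Rbm42 (-0.11).

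Of the 79 genes, 23 had no ratio on all 3 arrays from any probe. Ratios on 2 arrays were found for 7 of them and on 1 array for 8, and 8 had none. Their 22 measured values comprised 16 below 0 and 6 above, a split not computed for other genes. The lowest was -1.33 for Rbms3 on array 2. Prpf38a stood at -0.94 and -1.20 on arrays 1 and 2. At the other end stood Lsm4, given above. These genes entered no test.

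Probes of 1 gene did not always give 1 ratio. Of the 56 genes, 22 had at least 2 measured probes, and the difference between their highest and lowest probe had a median of 0.54, against 0.34 over 1328 genes of all kinds. In 5 of the 22 (22.7%) it was at least 1, against 15.9% of all genes. Lsm7 was the widest. Its 2 probes of 1 accession stood at 0.90 and 0.78, both higher in the fit on probes, while the other 3 stood at -0.76, -0.77 and -0.89. Its mean near 0 thus describes no single probe, and with the median probe the gene was lower (-0.67, adjusted p = 0.00423). Rbm39 had 1 probe at -1.17 and 1 at 0.26, Lsm3 had -1.89 and -0.53, and Hnrnpdl had 2 near -1.1 and 1 at 0.027. Of the 6 Hnrnpc probes, the 4 made from 1 accession lay between -1.31 and -1.03, a further probe stood at -0.74 and the last at 0.18. In the fit on probes, 70 of 96 were lower, against 33.5% of all probes, and 7 were higher, against 31.4%. The transcript form that each probe reads was not known here. Many Sm, Lsm and hnRNP genes have near-identical processed copies in the genome, so single values of these families are uncertain.

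**Figure D3:**
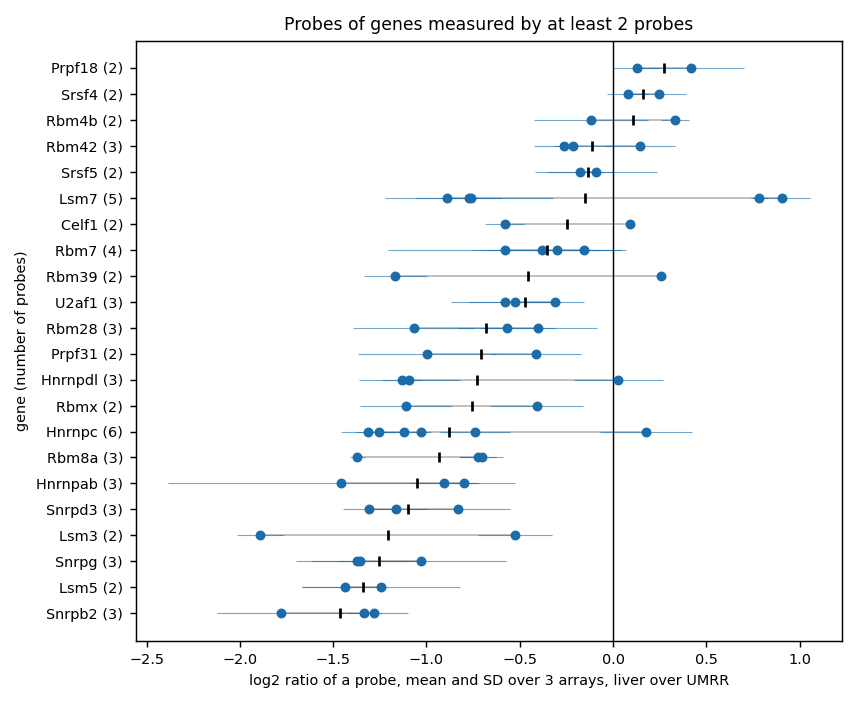
Log2 ratio of each probe (blue point, mean over 3 arrays with its SD as a thin line) for the 22 genes with at least 2 measured probes; the black tick is the gene's mean. The probes of Lsm7 fall into a group above 0 and a group below 0, and those of Snrpb2, Lsm5 and Snrpg measured on all 3 arrays lie below -1.

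Genes of the same pathway with other names were taken from 4 lists, to be read against the 33.9% of all genes tested that were lower and the 30.1% that were higher. Of 40 measured spliceosome components, 27 were lower (67.5%) and 2 higher (5%), and the list's median was -0.45. The lowest were Ddx39a, an RNA helicase (-1.48 ± 0.082, SD, n = 3), and Cwc27, a cyclophilin-type protein (-1.35 ± 0.087). The 2 higher were Rnf113a2 (0.59 ± 0.095) and Naa38 (0.68 ± 0.0093), an Lsm-like protein of an acetyltransferase and not of the spliceosome. Among 24 regulators and SR kinases, 15 lower (62.5%) and 3 higher (12.5%) genes gave a median of -0.45. Rsrc1 (-1.30 ± 0.037) and the SR kinase Srpk2 (-1.18 ± 0.027) were the lowest. Esrp2, a splicing regulator of epithelial cells, was highest at 2.29, 2.34 and 2.29, a mean of 2.31 ± 0.034 or 4.94-fold higher in liver. The others higher were Elavl4 (0.99 ± 0.11), known from neurons, and Tial1 (0.60 ± 0.14).

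Of 22 measured genes listed as hnRNP-like or other nuclear RNA-binding proteins, 17 were lower (77.3%, against 33.9% of all genes) and 5 did not pass. Their median was -0.52, and all 22 had a mean below 0, against 51.7% of all genes tested. The list was drawn widely and also holds genes outside that description, such as Tnpo3 and Caprin1. Besides Pspc1, Syncrip, a relative of Hnrnpr, stood at -1.64 ± 0.34 (SD, n = 3). Cirbp, the cold-induced relative of Rbm3, lay closest to 0 (-0.073 ± 0.34, adjusted p = 0.680). Of 9 factors that assemble snRNPs, 4 were lower (44.4%) and 2 higher (22.2%), shares near those of all genes (33.9% and 30.1%), with a median of -0.16. Prmt5, which methylates Sm proteins, stood at -0.98 ± 0.10 and Gemin6, of the SMN complex, at -0.97 ± 0.39. Gemin2 (0.50 ± 0.065) and Strap (0.64 ± 0.32) of the same complex were higher.

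The arrays repeated closely over the 56 genes, with array 1 apart. Pearson's r across these genes, which are not independent replicates, was 0.97 between arrays 2 and 3 and 0.84 between array 1 and each of them. The SD of the difference was 0.17 for arrays 2 and 3, 0.41 for arrays 1 and 2 and 0.41 for arrays 1 and 3. The sign was shared by 55, 53 and 52 of 56 genes. Array 1 was at least 0.5 below the mean of the others for 7 genes, led by Srsf10 (-1.93 against -0.93), then Rbm6 (a difference of -0.94) and Prpf4 (-0.84), and at least 0.5 above it for 5, led by Hnrnpr (0.80), Sf3b1 (0.59) and Sf3b3 (0.58). The share of all genes that differed by 0.5 was not computed. Without array 1, 43 genes were lower and 3 higher. In that fit 4004 of all 5520 genes were called in either direction, against 3535 with every array. On both arrays left, 14 genes were at least 2-fold lower. This is a looser rule than on 3 arrays, and the share of all genes under it was not computed. A gene's SD over arrays had a median of 0.16 for the 56 and 0.17 for all genes.

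**Figure D4:**
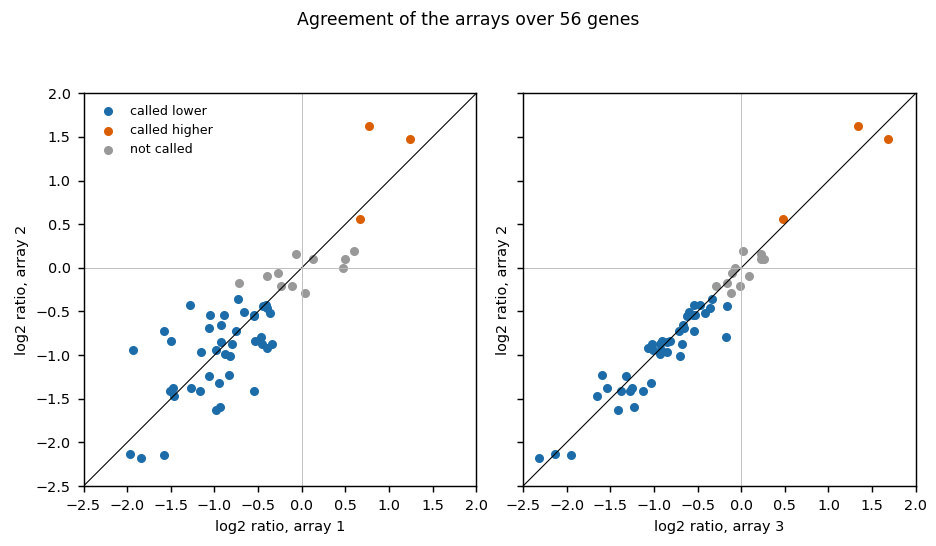
Log2 ratio of the 56 genes on array 1 (left) and array 3 (right) against array 2, with blue for genes lower in liver, orange for higher and grey for those that did not pass; the line marks equal values. Points lie closer to the line for arrays 3 and 2 (r = 0.97) than for arrays 1 and 2 (r = 0.84).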

How the data were processed

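The authors deposited 1 log2 ratio per probe and array, with base 2 assumed here from the values (-4.76 to 6.20); scanner, background correction, dye normalization and filters: all not given in the sources used here. Exact zeros made up 32.2%, 23.5% and 29.6% of values on arrays 1, 2 and 3 (27.6%, 20.4% and 30.9% of the 152 member probes), were read as no ratio, and probes with any were left out. Probes were named from the platform annotation, with symbols checked by gene identifier against RefSeq (GRCm38.p6), which changed 0 member symbols. Probes of 1 gene were averaged per array. An intercept was fitted to all 5520 genes by limma 3.58.1 (lmFit, eBayes; R 4.3.3), two-sided against 0, Benjamini-Hochberg threshold 0.05. In simulated data the fit recovered 35.6% of differences of 0.5, 74.9% of those of 1 and 94.8% of those of 2. Of its calls there, 3.62% were false. A gene that did not pass may thus still differ. Members and lists were chosen with earlier results of these data known. Every measured member could be named; array values were given for extremes, family leaders and opposed paralogs. The alternatives were centring, scaling, each array left out, the rules for zeros and probes, variance moderation, a filter on noisy probes, block medians, a threshold of 0.01 and natural logs; averaging probes by accession was chosen after seeing the data. The number of arrays limits the precision, and no filter on dim probes was possible.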

Additional observations from a re-analysis of the deposited data

How the results depend on the processing

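Centring or scaling the arrays and eBayes with trend and robust set changed no call of the 56 genes, and no called gene changed sign under any alternative. Of 45 called genes, 20 (19 lower, 1 higher) kept their call under every alternative that fitted them. Leaving out each array in turn gave 38 to 43 lower and 3 higher genes, 2755 to 4004 called genes in all, a median of -0.74 to -0.67, 9 to 14 genes at least 2-fold lower on every array and 1 to 2 higher. Without moderation of the variance 25 genes were lower and 2087 genes of all kinds were called. Exact zeros taken as ratios of 1 brought all 79 genes in: 28 were lower, 1 was higher and the median was -0.35. Of 7984 genes of all kinds, 2391 were then called in either direction. Of the 79 genes 0 were at least 2-fold higher on every array, as with probes on at least 2 arrays (0). Block medians gave 2 such genes. If the values are natural logs, 22 genes stood at least 2-fold lower and 2 higher on every array (median -1.07). Under these alternatives the shares of all genes that were lower, higher or 2-fold apart were not computed, so the members' counts have no such background. Of the pairs of related genes, Snrpd1 minus Snrpd3 was -0.61 with probes on at least 2 arrays and 0.30 with zeros kept, Snrpa minus Snrpb2 was 0.30 with zeros kept, and Hnrnpab minus Hnrnpdl turned from -0.32 to 0.079 with the median probe. No paired analysis was possible because all arrays form 1 group. The number of arrays limits the precision, and signal over background was not used here.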
